A study of Mus musculus with 860 samples.

Results

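The genes described here encode the classical MHC class I molecules of the mouse and the machinery that supplies them with peptide. They were chosen by name, whatever their values: the heavy chains H2-K1 and H2-D1, the light chain B2m, the peptide transporter subunits Tap1 and Tap2, the loading chaperone Tapbp and the immunoproteasome subunits Psmb8, Psmb9 and Psmb10. They are 9 of the 46078 genes in the count table, and 9 of 9 had reads in the kept cells.

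Class I molecules display peptides from the cell's own proteins at its surface, where T cells and NK cells read them. The proteasome cuts the peptides, the TAP transporter carries them into the endoplasmic reticulum, and tapasin (Tapbp) holds the empty heavy chain and beta-2-microglobulin (B2m) close to the transporter until a peptide is bound. Interferon-gamma is the best known inducer of the whole set, and in the immunoproteasome the subunits Psmb8, Psmb9 and Psmb10 take the place of the constitutive catalytic subunits Psmb5, Psmb6 and Psmb7.

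Single cells of the aorta-gonad-mesonephros (AGM) region of mouse embryos were index sorted and sequenced one by one with a modified Smart-Seq2 protocol, which reads whole transcripts and has no molecular identifiers. All cells carry the strain label CD1/Gf1+, which stands for a Gfi1:tomato reporter on the outbred CD1 background. No cell was treated, no group is free of the reporter, and the age that the labels give in weeks was not used, since the cells came from embryos. At E11.5 the groups were GFI1+ HE (hemogenic endothelium, CD31+cKIT-GFI1+, 22.19% of the 775 kept cells), GFI1+ IAHC (intra-aortic hematopoietic clusters, CD31+cKIT+GFI1+, 30.97%) and GFI1- IAHC (17.42%, the same surface markers and no reporter signal, CD31+cKIT+GFI1-). At E10.5 they were GFI1+ HE (14.06%) and GFI1+ IAHC (14.97%), and a further 3 GFI1- IAHC cells entered no comparison.

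The authors kept 775 of 860 cells and placed them in 11 Louvain clusters. Cluster 4 (76 cells) is the one they named HSC-HE, and cluster 2 the one they named HSC. The markers fitted those names in part: the summed level of 4 endothelial genes was 3722 CPM (counts scaled to a library total of 1000000) in cluster 4, against 511 CPM in cluster 2 (batch GL78), and that of 5 hematopoietic genes was 55.5 CPM in cluster 4, against 577 CPM in cluster 2. The clusters were built from the same cells' genes, so values across clusters are descriptions.

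A GEO sample here is a cell, no animal is named and AGMs were pooled, so each group counts as 1 sample and no test was made. The labels name the batches GL53, GL58, GL69 and GL78, and counts were summed per group within a batch before they were expressed as CPM. Ratios are log2 of CPM with a pseudocount of 1 CPM, which understates the change of low genes. They were taken within each batch that held at least 10 cells of both groups and then averaged, and ± is the SD over batches. A gene was called higher or lower where it reached 10 CPM in the higher group and the difference was 2-fold or more and pointed the same way in each batch used. Kept cells had a median of 727732 counts (134284 to 2296823). None of the 15 plates held both stages, so stage and plate cannot be told apart, in batch GL78 as in the others.

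Of the 9 genes, 7 lie on chromosome 17 in the MHC, in the mm10 assembly (GRCm38) with GENCODE gene bounds. Tapbp is at chr17:33915899-33929292, H2-K1 at chr17:33996017-34000347 and H2-D1 at chr17:35262730-35267499. Psmb9 (chr17:34181987-34187764), Tap1 (chr17:34187553-34197225), Psmb8 (chr17:34197721-34201454) and Tap2 (chr17:34203527-34216321) follow each other within 34335 bases. Psmb9 and Tap1 lie on opposite strands and their annotated ends overlap. B2m is at chr2:122147686-122153083 and Psmb10 at chr8:105935735-105938444. All values are reads over the exons of whole genes.

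The upstream sequences of both heavy chains and the stretch between Psmb9 and Tap1 are shown because these genes gave 2 different patterns below, H2-D1 by stage, and Psmb9 and Tap1 by cluster. They are RefSeq sequences of GRCm38.p6, and their start sites are those of RefSeq, which lie inside the wider GENCODE bounds given above for H2-D1, Psmb9 and Tap1. The first 2 are the 250 bases before the annotated transcript starts, chr17:34000348-34000597 (minus strand) and chr17:35262844-35263093 (plus strand), and the last holds the bases between the RefSeq starts of Psmb9 and Tap1, chr17:34187331-34187555 (plus strand). Capitals mark the NF-kappaB consensus (searched by its name), the X2 box TGACGC and the Y box CTGATTGG, whose other strand is printed in capitals in the H2-D1 sequence and in that from Psmb9 to Tap1.
H2-K1: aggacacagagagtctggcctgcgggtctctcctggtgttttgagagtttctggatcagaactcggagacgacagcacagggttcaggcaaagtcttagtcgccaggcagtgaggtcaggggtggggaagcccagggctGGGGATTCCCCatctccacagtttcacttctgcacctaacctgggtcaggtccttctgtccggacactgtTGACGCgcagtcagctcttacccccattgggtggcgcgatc
H2-D1: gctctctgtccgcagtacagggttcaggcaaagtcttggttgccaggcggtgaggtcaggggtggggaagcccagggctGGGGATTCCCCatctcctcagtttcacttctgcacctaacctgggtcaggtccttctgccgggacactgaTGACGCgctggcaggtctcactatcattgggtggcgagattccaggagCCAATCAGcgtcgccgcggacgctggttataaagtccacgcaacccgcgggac
Psmb9 to Tap1: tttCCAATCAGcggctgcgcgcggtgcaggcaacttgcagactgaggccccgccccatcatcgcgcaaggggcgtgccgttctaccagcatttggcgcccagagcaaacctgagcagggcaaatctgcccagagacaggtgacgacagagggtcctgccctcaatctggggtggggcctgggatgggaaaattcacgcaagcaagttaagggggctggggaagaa

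In H2-K1 the X2 box lay 41 to 36 bases before the start, with the NF-kappaB match upstream of it. In H2-D1 the order was the same, and the Y box lay between the X2 box and the start, 53 to 46 bases before it. Of 32851 promoters of the same length, searched on both strands, 7.25% held the NF-kappaB consensus, 6.12% the X2 box and 3.83% the Y box. Of the 9 genes, 8 matched a promoter entry and Tap2 did not. The NF-kappaB consensus was found for B2m, H2-D1 and H2-K1, the X2 box for H2-D1 and H2-K1, and the Y box for H2-D1, Psmb9 and Tap1. An interferon response element core (GAAANNGAAA, in 2.98% of promoters) was found only for B2m among the 8, and a GAS core (TTCNNNGAA, in 7.02%) only for Psmb8. Both cores were searched as these letters (N for any base). Elements that differ from them were not counted, so a gene without a match may still hold one. NF-kappaB and X2 do not overlap the Y box in these sequences, and a match is a description of letters.

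Some reads could not have been assigned to 1 gene. Of all 75-base stretches of the annotated transcripts, H2-K1 shared 3.10% with other genes (15 genes, mostly H2-Q10) and H2-D1 5.56% (19 genes, mostly H2-Q1). Psmb8 shared 9.97% with the gene model Gm20496, Tapbp 18.6% (mostly with Gm19412) and Tap2 8.27% (mostly with Gm15821), while Tap1 and Psmb9 shared 2.40% and 3.44% with each other. B2m and Psmb10 shared none. The strand setting of the counting is not given in the sources used here, so reads of overlapping genes cannot be told apart. CD1 mice can carry other H2 alleles than the reference strain, and how many of their reads aligned was not tested.

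Over all 775 kept cells, per kilobase of exon, B2m was at 441 CPM, H2-D1 at 119.3 and H2-K1 at 74.2, Psmb10 at 23.9 and Tapbp at 7.88, and Psmb8, Psmb9, Tap2 and Tap1 between 1.93 and 0.892. So the genes of the surface molecule stood far above those of the transporter and of the subunits Psmb8 and Psmb9 on the per kilobase scale. Reads were found in 96.6% of cells for B2m, 92.5% for H2-D1 and 88.1% for H2-K1, in 51.4% for Psmb10, in fewer for Tapbp and in 6.32 to 9.94% for the other 4. All further levels are CPM of whole genes and are compared within a gene.

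Both heavy chains, which hold the peptide at the cell surface, were detected in every group and batch. H2-K1 stood at 239.1, 215.5 and 286.2 CPM in E11.5 HE (batches GL53, GL58 and GL78), at 223.03, 180.8 and 283.2 CPM in E11.5 GFI1+ IAHC and at 115.3 and 315.3 CPM in E11.5 GFI1- IAHC (GL53 and GL78). At E10.5 it stood at 153.9 and 258.3 CPM in HE (GL58 and GL78) and at 109.3 and 170.97 CPM in GFI1+ IAHC (GL69 and GL78). The groups overlapped for H2-K1, and within GL78 the lowest value was that of E10.5 GFI1+ IAHC.

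H2-D1 separated the stages more. Its levels were 367.6, 436.05 and 602.9 CPM in E11.5 HE, 298.6, 179.1 and 452.5 CPM in E11.5 GFI1+ IAHC and 186.9 and 473.8 CPM in E11.5 GFI1- IAHC. At E10.5 they were 142.5 and 285.2 CPM in HE and 163.25 and 147.3 CPM in GFI1+ IAHC. Every E11.5 HE value lay above every value of E10.5 HE and E10.5 GFI1+ IAHC. Reads of H2-D1 were found in 100% of E11.5 HE cells of GL53 and GL58 and 38 of 40 of GL78, against 94.4 and 93.4% of E10.5 HE cells (GL58 and GL78), so the stages differed in level and hardly in the number of cells with reads.

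B2m, the invariant light chain without which class I molecules do not reach the surface, followed the heavy chains. It stood at 557.6, 522.7 and 424.5 CPM in E11.5 HE, at 502.2, 339.9 and 364.3 CPM in E11.5 GFI1+ IAHC and at 316.6 and 374.2 CPM in E11.5 GFI1- IAHC. At E10.5 it stood at 300.8 and 283.2 CPM in HE and at 260.9 and 240.8 CPM in GFI1+ IAHC. Every value of the 3 E11.5 groups lay above every value of E10.5 HE and E10.5 GFI1+ IAHC. Over all batches, B2m reads were found in 100% of E11.5 HE cells and 95.4% of E10.5 HE cells, and the median cell had 491.2 CPM in E11.5 HE and 224.7 CPM in E10.5 HE.

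The transporter subunits, which form a pair in the membrane of the endoplasmic reticulum, had reads in few cells of any group. Tap1 had 2.29, 7.04 and 0 CPM in E11.5 HE, 12.4, 2.49 and 2.35 CPM in E11.5 GFI1+ IAHC and 8.80 and 9.86 CPM in E11.5 GFI1- IAHC, and at E10.5 it had 3.696 and 0.872 CPM in HE and 1.43 and 5.40 CPM in GFI1+ IAHC. A count of 0 in the E11.5 HE cells of GL78 allows up to 0.0926 CPM. These sums rested on few cells: in E11.5 HE of GL58 all Tap1 reads came from 1 of 19 cells. Tap2 had 3.98, 5.62 and 4.78 CPM in E11.5 HE, 4.79, 3.17 and 6.27 CPM in E11.5 GFI1+ IAHC and 1.09 and 14.5 CPM in E11.5 GFI1- IAHC, and at E10.5 it had 1.02 and 2.22 CPM in HE and 1.15 and 1.83 CPM in GFI1+ IAHC.

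Tapbp, the bridge between transporter and heavy chain, lay between 22.9 and 32.3 CPM in all but 2 of the groups and batches. It stood at 30.4, 22.9 and 25.3 CPM in E11.5 HE, at 32.3, 26.01 and 29.7 CPM in E11.5 GFI1+ IAHC and at 26.98 and 51.2 CPM in E11.5 GFI1- IAHC. At E10.5 it stood at 29.6 and 32.3 CPM in HE and at 3.74 and 24.1 CPM in GFI1+ IAHC, so the values apart from the rest were the 51.2 CPM of E11.5 GFI1- IAHC in GL78 and the 3.74 CPM of the 29 E10.5 GFI1+ IAHC cells of GL69.

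Among the immunoproteasome subunits, Psmb8 and Psmb9 were near 0 in most cells and Psmb10 was not. Psmb8 had 3.38, 20.5 and 0.0309 CPM in E11.5 HE, 13.9, 8.92 and 9.34 CPM in E11.5 GFI1+ IAHC and 9.38 and 19.3 CPM in E11.5 GFI1- IAHC, against 0.398 and 0.768 CPM in E10.5 HE and 0.204 and 1.49 CPM in E10.5 GFI1+ IAHC. Psmb9 had 2.51, 23.1 and 0 CPM in E11.5 HE, 7.86, 1.61 and 5.59 CPM in E11.5 GFI1+ IAHC and 5.56 and 17.5 CPM in E11.5 GFI1- IAHC, against 0 and 0.130 CPM in E10.5 HE and 5.98 and 3.11 CPM in E10.5 GFI1+ IAHC. The high GL58 values of E11.5 HE came from few of its 19 cells: 4 cells had Psmb8 reads, with 41.9% of the reads in 1 of them, and 6 had Psmb9 reads. Psmb10 stood at 21.7, 39.9 and 39.4 CPM in E11.5 HE, 38.4, 24.3 and 42.7 CPM in E11.5 GFI1+ IAHC and 25.7 and 52.7 CPM in E11.5 GFI1- IAHC, against 51.3 and 30.3 CPM in E10.5 HE and 57.97 and 77.7 CPM in E10.5 GFI1+ IAHC.

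**Figure D1:**
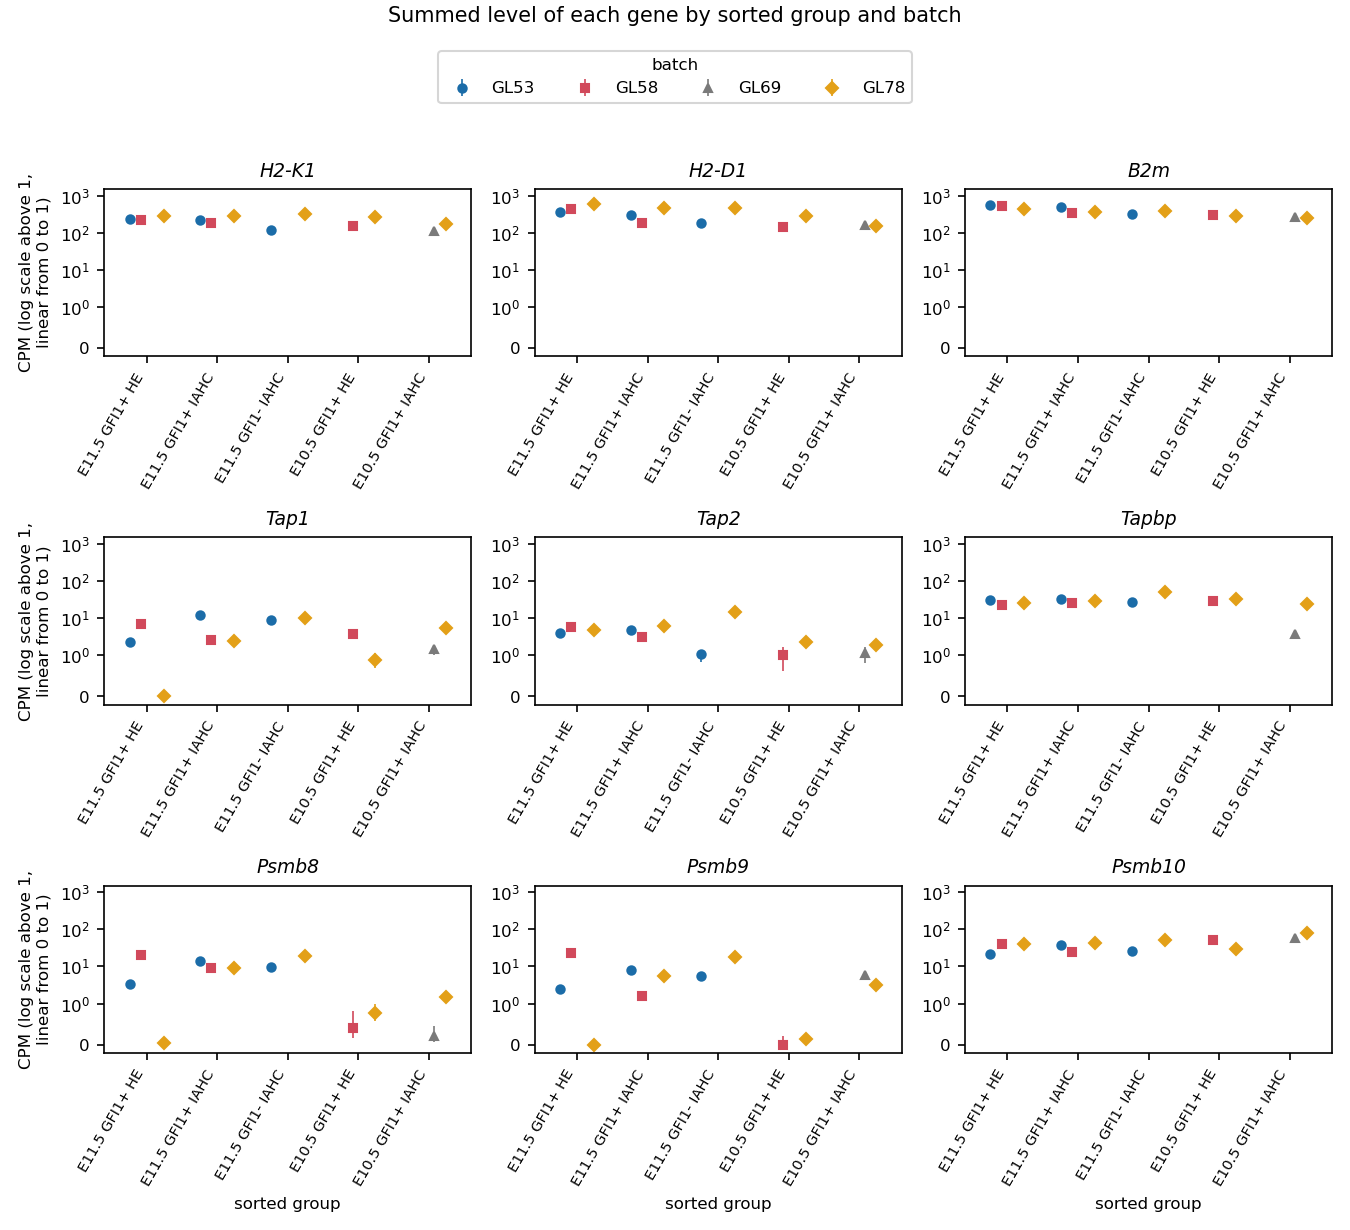
Summed level of each of the 9 genes (CPM, on a scale that is logarithmic above 1 and linear from 0 to 1) in 5 sorted groups, 1 point per group and batch, with bars for the 95% Poisson interval of the count. H2-K1, H2-D1 and B2m lay between 109.3 and 602.9 CPM, while Psmb8 and Psmb9 ranged from 0.0309 and 0 up to 20.5 and 23.1 CPM.

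The first comparison asked how the genes differ between stages. Between E11.5 HE and E10.5 HE, 1 of the 9 genes was called higher, H2-D1, and 0 lower, where 2.48% of the 9808 genes at 10 CPM or more were called higher and 1.99% lower. H2-D1 averaged 519.5 CPM in E11.5 HE and 213.9 CPM in E10.5 HE, a log2 ratio of 1.34 ± 0.37 over GL58 and GL78. In GL58, which held fewer cells of these groups than GL78, its 95% Poisson intervals were 426.2 to 446.1 CPM in E11.5 HE and 137.02 to 148.2 CPM in E10.5 HE, which cover counting error only. Of the 7 members at 10 CPM, H2-K1, H2-D1 and B2m were higher in both batches and Tapbp was lower in both. Over all genes, 30.3% were higher in both batches and 31.9% lower, so the number of members that kept a direction was near the background.

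B2m averaged 473.6 CPM in E11.5 HE and 292.01 CPM in E10.5 HE (log2 ratio 0.69 ± 0.15), and H2-K1 250.9 and 206.1 CPM (0.32 ± 0.24). Tapbp averaged 24.1 CPM in E11.5 HE and 30.9 CPM in E10.5 HE (−0.35 ± 0.01). Psmb8 and Psmb9 had opposite directions in the 2 batches, with Psmb8 at 3.94 in GL58 and −0.78 in GL78. In GL58 alone 3 members would have been called, these 2 and H2-D1. The share of all genes called in GL58 alone is not given here. In GL58 Psmb9 was at least 135.5-fold higher in E11.5 HE, where E10.5 HE had no read and the floor was 3 reads for that sum. The median log2 ratio of the 9 genes was 0.69 (SD of the batch medians 0.46), against −0.01 over all genes, and it was 0.15 without GL58. Markers of other lineages moved with the stage in HE: the 5 megakaryocyte and platelet markers summed to 26.1 and 2376 CPM in E11.5 HE (GL58 and GL78), against 689 and 2760 CPM in E10.5 HE, and in E11.5 HE of GL78 the top cell of 40 held 98.97% or more of the reads of each. The 4 erythroid markers summed to 8.10 and 25.9 CPM, against 324.04 and 303.3 CPM. Without clusters 6 to 10, which hold the cells of other lineages, the H2-D1 ratio was 1.27.

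Between E11.5 GFI1+ IAHC and E10.5 GFI1+ IAHC, which could be compared in GL78 alone, H2-D1 was again the 1 member called higher and 0 were called lower, where 8.79% of all genes were called higher and 2.48% lower. H2-D1 had 452.5 CPM in E11.5 GFI1+ IAHC and 147.3 CPM in E10.5 GFI1+ IAHC, a log2 ratio of 1.61. B2m differed by 0.59, H2-K1 by 0.72 and Tapbp by 0.29. Psmb10 had 42.7 CPM in E11.5 GFI1+ IAHC and 77.7 CPM in E10.5 GFI1+ IAHC (−0.85). The median over the 9 genes was 0.68, against 0.07 over all genes.

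Psmb8 differed by 2.06 in the same comparison, with 9.34 CPM in E11.5 GFI1+ IAHC and 1.49 CPM in E10.5 GFI1+ IAHC, and did not reach 10 CPM. Reads of macrophage and lymphoid marker genes moved with it: the summed level of 10 macrophage markers was 237.3 CPM in E11.5 GFI1+ IAHC and 72.3 CPM in E10.5 GFI1+ IAHC, where 4 of the 10 were at 0, and that of 4 T, B and NK cell markers was 30.8 CPM in E11.5 GFI1+ IAHC, with all 4 at 0 in E10.5 GFI1+ IAHC. Without cells that had any read of C1qa, C1qb, C1qc, an MHC class II gene or a T, B or NK cell marker, the Psmb8 ratio was 0.01, that of H2-D1 1.71, that of Tapbp −0.35 and the median over the 9 genes 0.01, and Psmb10 was then also called, lower at E11.5 (−1.16). This step took out unlike shares of cluster 2, which held 95.8% of all Psmb8 reads. Over all gates of GL78, it took out 19 of 23 E11.5 cells and 7 of 45 E10.5 cells of that cluster. In the cluster 2 cells left, Psmb8 had 37.9 CPM (4 cells) at E11.5 and 4.63 CPM (38 cells) at E10.5.

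Since clusters take different shares of the gates at the 2 stages, the stages were also compared within clusters, over HE and GFI1+ IAHC cells of GL78. H2-D1 had 523.9 CPM at E11.5 and 158.4 CPM at E10.5 in cluster 0 (52 and 19 cells), 506.1 and 221.1 CPM in cluster 1, and 495 and 145.4 CPM in cluster 3. In cluster 2 it had 583.6 CPM at E11.5 and 141.7 CPM at E10.5 (16 and 45 cells), and in cluster 4 it had 708.8 CPM at E11.5 and 469 CPM at E10.5 (7 and 28 cells). The log2 ratios were 1.72, 1.19, 1.76, 2.03 and 0.59 in that order of clusters. B2m was also higher at E11.5 in 5 of 5 clusters, by 0.14 in cluster 4 and by 0.75 to 1.00 in the others.

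H2-K1 was higher at E11.5 in clusters 0, 1, 2 and 3, by 0.79 to 1.07, but had 383.2 CPM at E11.5 and 527.9 CPM at E10.5 in cluster 4 (−0.46). So 2 of the 6 members at 10 CPM were higher in every one of the 5 clusters, where 6.43% of all genes were higher in all 5 and 9.29% lower. Psmb8 had reads worth 62.8 CPM at E11.5 and 4.01 CPM at E10.5 in cluster 2, and at most 0.780 CPM in the other 4 clusters at either stage.

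**Figure D2:**
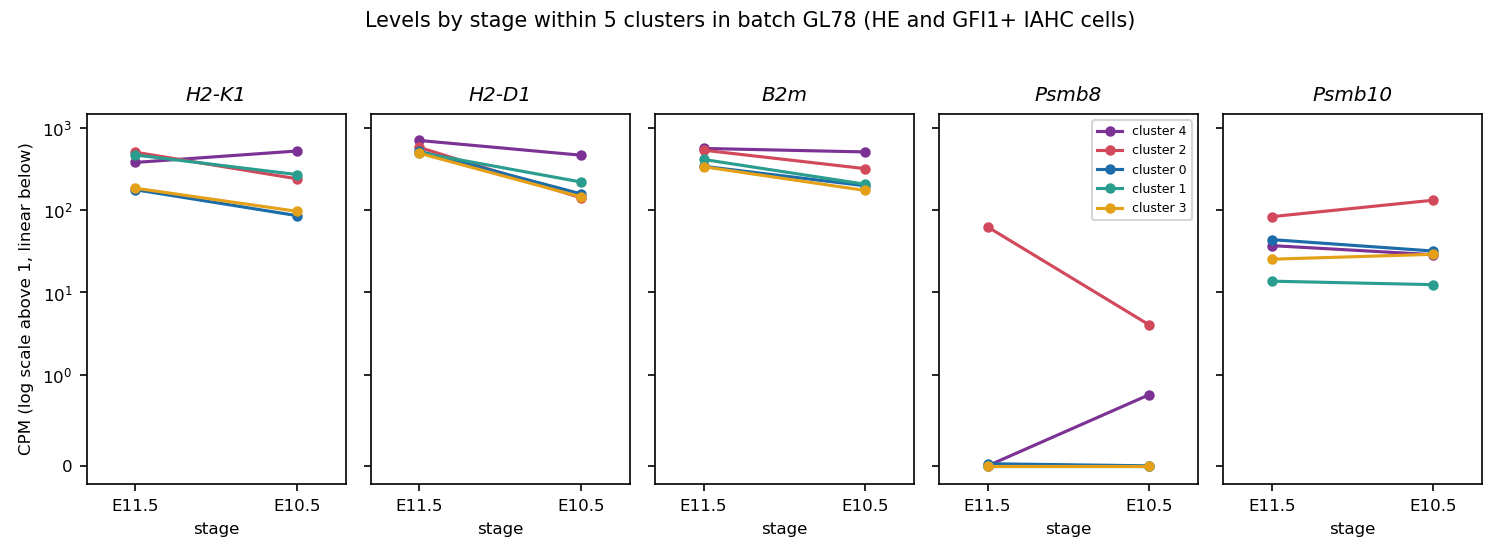
Levels at E11.5 (left of each panel) and E10.5 (right) of 5 genes within clusters 4, 2, 0, 1 and 3, in HE and GFI1+ IAHC cells of batch GL78 (CPM, logarithmic above 1 and linear below), each line joining the 2 stages of a cluster. H2-D1 and B2m lie higher at E11.5 in each cluster, H2-K1 in all but cluster 4, and Psmb8 is above 1 CPM in cluster 2 alone.

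The second comparison set HE against the IAHC that arise from it. Between E11.5 HE and E11.5 GFI1+ IAHC no member was called in either direction, where 0.917% of 9923 genes were called higher and 0.917% lower. H2-D1 averaged 468.9 CPM in E11.5 HE and 310.1 CPM in E11.5 GFI1+ IAHC (log2 ratio 0.66 ± 0.54), B2m 501.6 and 402.1 CPM (0.33 ± 0.25) and H2-K1 246.96 and 229.01 CPM (0.12 ± 0.12). These 3 were higher in each of the 3 batches and Tapbp was lower in each (−0.16 ± 0.07, but 0.09 without cells that had C1q, class II or lymphoid reads), where 16.3% of all genes were higher in every batch and 25.6% lower. For H2-D1 the ratio was 1.28 in GL58 and no more than 0.41 in the other batches.

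Both transporter genes and the 3 immunoproteasome genes were lower in HE in GL53 and GL78 and higher in GL58. For Psmb8 the ratios were −1.76 and −3.33 in GL53 and GL78 and 1.11 in GL58. Their mean was −1.33 ± 2.25, and 0.52 without cells that had C1q, class II or lymphoid reads. The median over the 9 genes was −0.07 (SD of the batch medians 0.53), against −0.08 over all genes. Without GL58, 1 member was called, Psmb8, which was lower in HE by 2.55 on the log2 scale. The share of all genes called without GL58 is not given here.

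At E10.5 the gates could be compared in GL78, and Psmb10 was the 1 member called lower, with 0 higher, where 1.99% of 9577 genes were called lower and 5.47% higher. Psmb10 had 30.3 CPM in E10.5 HE and 77.7 CPM in E10.5 GFI1+ IAHC (−1.33), with reads in 41 of 91 HE cells and 65 of 87 IAHC cells. H2-D1 had 285.2 and 147.3 CPM (0.95) and H2-K1 258.3 and 170.97 CPM (0.59), while B2m (0.23) and Tapbp (0.41) differed less. The other 4 genes did not reach 10 CPM. The median over the 9 genes was 0.19, against −0.02 over all genes, and −0.32 in cells thinned to 50000 counts. Megakaryocyte and platelet markers summed to 2760 CPM in E10.5 HE and 115.6 CPM in E10.5 GFI1+ IAHC of GL78, and erythroid markers to 303.3 and 10.3 CPM. Without clusters 6 to 10 the ratios were −1.42 for Psmb10, 0.87 for H2-D1 and 0.02 for Tapbp. Cluster 2 held 10.1% of E10.5 HE and 36.2% of E10.5 GFI1+ IAHC cells over all batches. Its 36 E10.5 GFI1+ IAHC cells of GL78 had 140.99 CPM of Psmb10. In clusters 0, 1 and 3 Psmb10 had 1.48, 8.22 and 23.5 CPM in E10.5 HE of GL78, against 48.7, 16.2 and 37.5 CPM in E10.5 GFI1+ IAHC. The part of the cluster shares in the call was not tested.

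The third comparison set GFI1+ IAHC against GFI1- IAHC at E11.5. No member was called, where 0.493% of 10345 genes were called higher and 1.76% lower, and no member kept its direction in both batches, where 26.2% of all genes were higher in both and 30.2% lower. In GL53 all 9 genes were higher in GFI1+ IAHC, and in GL78 all 9 were lower. H2-K1 had 223.03 CPM in GFI1+ IAHC and 115.3 CPM in GFI1- IAHC in GL53, and 283.2 and 315.3 CPM in GL78. The median over the 9 genes was 0.13 (SD of the batch medians 0.94), against −0.02 over all genes. In GL78 alone 2 members would have been called, Tap2 and Psmb9, both lower in GFI1+ IAHC. The share of all genes called in GL78 alone is not given here, and the shares above need both batches. In GL53 the GFI1- IAHC gate held 31 cells of cluster 6, whose heavy chain levels were low, and without clusters 6 to 10 the H2-D1 ratio was −0.04, against 0.30 with them. Macrophage markers summed to 88.5 CPM in GFI1+ IAHC and 374.3 CPM in GFI1- IAHC of GL53 and to 237.3 and 831.7 CPM in GL78, and their part in the result was not tested.

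**Figure D3:**
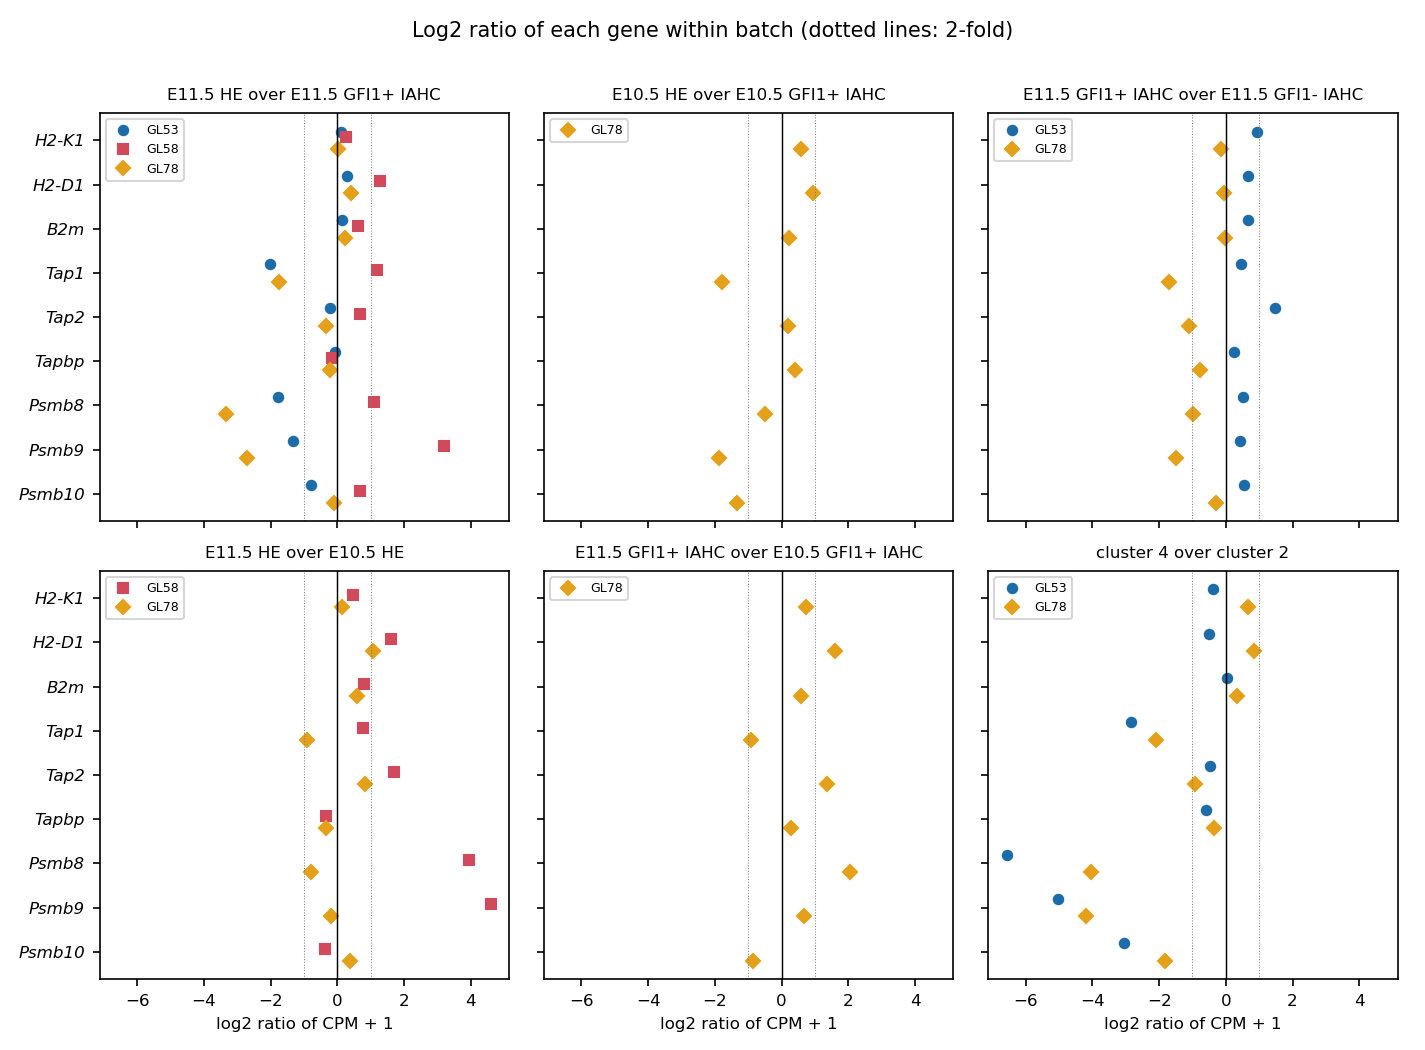
Log2 ratio (CPM plus 1) of each of the 9 genes in each of 6 comparisons, 1 point per batch, with dotted lines at a 2-fold difference. H2-D1 lies to the right of the 2-fold line in both batches for E11.5 HE over E10.5 HE, and Tap1, Psmb8, Psmb9 and Psmb10 lie to the left of it in both batches for cluster 4 over cluster 2.

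The clusters named HSC-HE and HSC were then compared. Between cluster 4 and cluster 2, 4 members were called lower and 0 higher: Tap1, Psmb8, Psmb9 and Psmb10. These clusters differ widely, and 11.53% of 10554 genes were called lower and 12.7% higher. Psmb8 had 0.0968 and 0.601 CPM in cluster 4 (GL53, 33 cells, and GL78, 38 cells), against 103.2 and 25.2 CPM in cluster 2 (28 and 68 cells), a log2 ratio of −5.30 ± 1.79. Its counts in cluster 4 were 2 and 18 reads, and the ratio of the levels in GL53 was 9.38e-04 (95% interval 1.14e-04 to 0.00339).

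Psmb9 had 0.484 and 0 CPM in cluster 4, against 47.8 and 17.1 CPM in cluster 2 (−4.61 ± 0.61), and in GL78 it was at least 171.3-fold lower in cluster 4, with a floor of 3 reads for that sum. Tap1 had 6.73 and 1.33 CPM in cluster 4, against 54.4 and 9.01 CPM in cluster 2 (−2.47 ± 0.53). Psmb10 had 11.95 and 34.8 CPM in cluster 4, against 107.02 and 125.5 CPM in cluster 2 (−2.44 ± 0.88). For these 4 genes the values of both clusters did not overlap across the batches. The share of all genes without such an overlap is not given here, and 11.53% of all genes were called lower between these clusters.

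Surface-molecule genes did not follow this pattern. H2-K1 had 367.4 and 504.1 CPM in cluster 4, against 476 and 316.4 CPM in cluster 2, and H2-D1 had 321.02 and 516.3 CPM, against 451.9 and 284.9 CPM, so that both changed direction between the batches. The batches differed in stage: in cluster 2 all 28 cells of GL53 were E11.5, and 45 of 68 in GL78 were E10.5. Among HE and GFI1+ IAHC cells of GL78, H2-K1 had 383.2 CPM in cluster 4 (7 cells) and 510.3 CPM in cluster 2 (16 cells) at E11.5. At E10.5 it had 527.9 and 241.96 CPM (28 and 45 cells). For H2-D1 the values were 708.8 and 583.6 CPM at E11.5, and 469 and 141.7 CPM at E10.5. B2m had 838.3 and 514.7 CPM in cluster 4, against 816.1 and 408 CPM in cluster 2 (0.19 ± 0.21). Tap2 (−0.71 ± 0.32) and Tapbp (−0.48 ± 0.16) were lower in cluster 4 in both batches. In all, 1 member was higher and 6 lower in both batches, where 33.7% of all genes were higher and 44.2% lower. The median over the 9 genes was −0.71 (SD of the batch medians 0.25), against −0.15 over all genes.

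In the endothelial clusters 0, 1, 3 and 5 the heavy chains and B2m were high, and Psmb8 and Psmb9 had reads in few cells (4 and 10 of 476). H2-K1 lay between 110.5 and 369.4 CPM, H2-D1 between 200.6 and 422.7 CPM and B2m between 228.01 and 457.7 CPM over their units of at least 10 cells. Psmb8 did not exceed 0.488 CPM and Psmb9 did not exceed 4.37 CPM in any of those units. Within this set and cluster 4, H2-K1 and B2m were higher in cluster 4 than in clusters 0, 1, 3 and 5 in GL53 and in GL78. The GL78 sums pool the stages. Among E11.5 HE and GFI1+ IAHC cells of GL78, H2-K1 had 383.2 CPM in cluster 4 (7 cells) and 472.3 CPM in cluster 1 (23 cells). At E10.5 it had 527.9 CPM (28 cells) and 272.5 CPM (20 cells).

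Clusters 6 to 10 were set apart by their lineage markers. Cluster 8, led by germ cell markers (a sum of 2672 CPM in GL78), almost lacked class I: over its 25 cells H2-K1 had 1.93 CPM, H2-D1 6.15 CPM and B2m 2.34 CPM, with B2m reads in 3 cells, whereas Tapbp had 61.5 CPM and reads in 18 cells. Cluster 6, led by mesenchymal markers (4458 CPM), had 14.8 CPM of H2-K1, 21.9 CPM of H2-D1 and 178.1 CPM of B2m in GL53. Cluster 9, led by megakaryocyte and platelet markers (34898 CPM), had 88.9 CPM of H2-K1 and 500.6 CPM of H2-D1 in 10 cells of GL78, with 152.4 CPM of Tapbp and no reads of Tap1, Tap2, Psmb8 or Psmb9. In the 11 cells of cluster 10, over all batches, B2m had 906 CPM, Tap1 50.4 CPM, Psmb8 15.99 CPM and Psmb9 25.9 CPM.

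**Figure D4:**
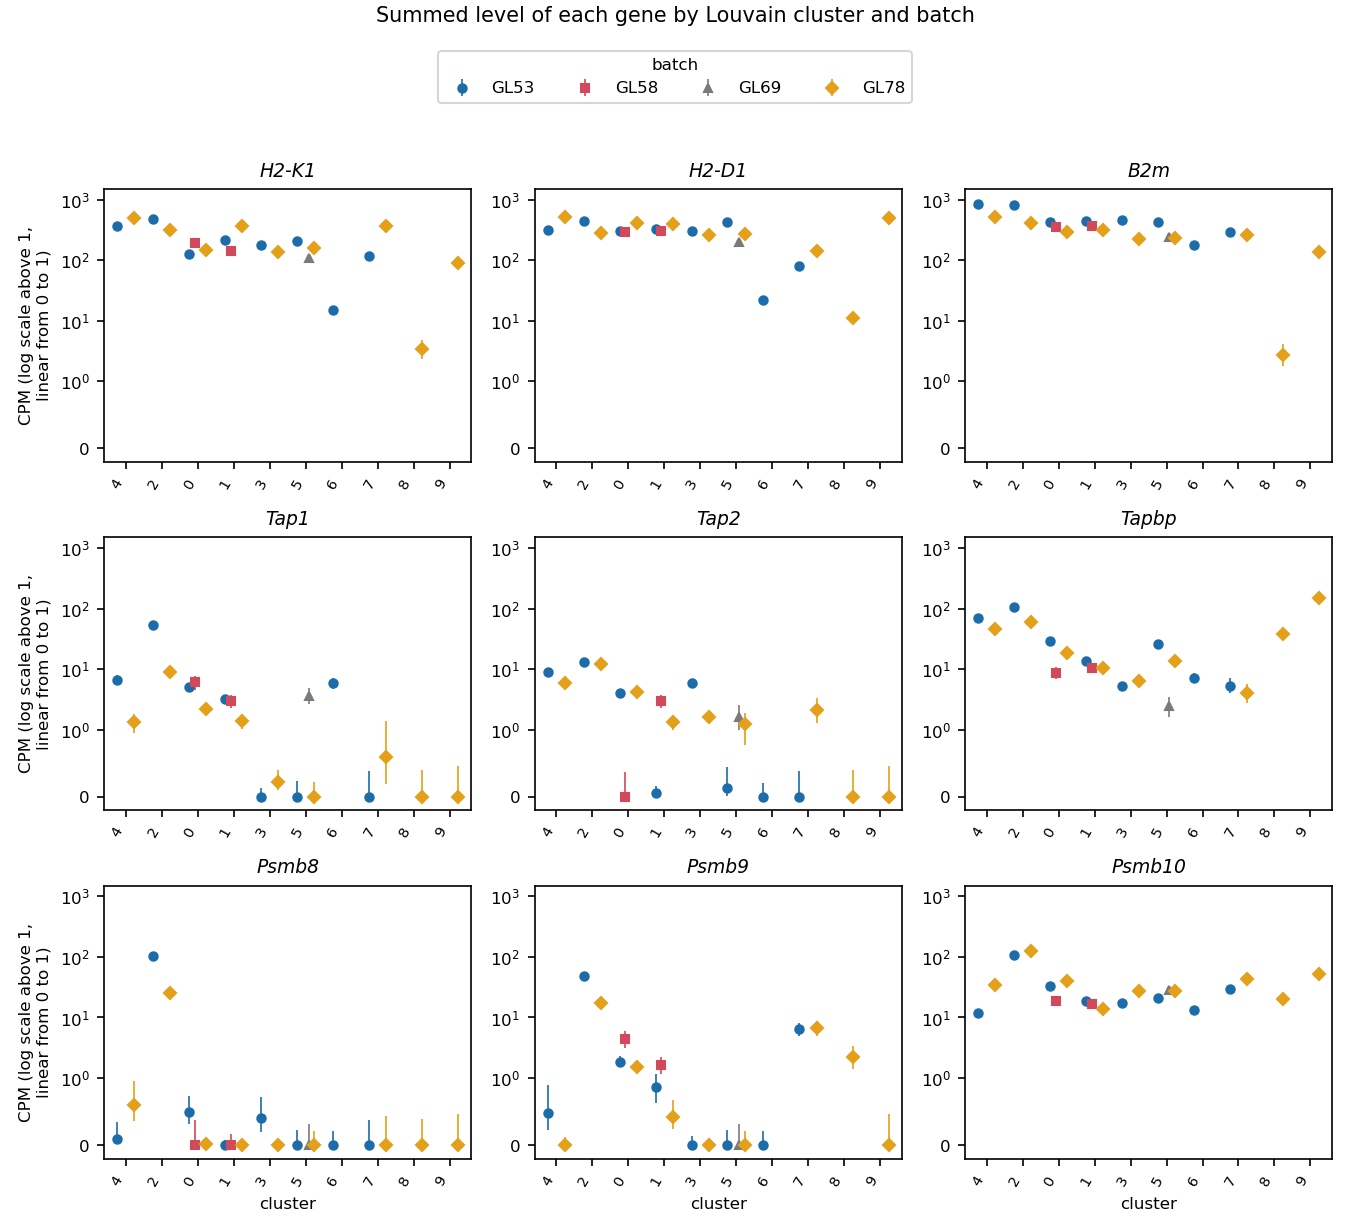
Summed level of each gene (CPM, logarithmic above 1 and linear from 0 to 1) in clusters 4, 2, 0, 1, 3 and 5 to 9, 1 point per cluster and batch of at least 10 cells, with bars for the 95% Poisson interval. Psmb8 stands at 103.2 and 25.2 CPM in cluster 2 and at no more than 0.601 CPM in the other units drawn, and B2m falls below 3 CPM in cluster 8 alone. Cluster 10, which also had Psmb8 reads, is not drawn.

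Cluster 2 held 14.1% of the kept cells. It held 95.8% of all Psmb8 reads, 78.96% of Psmb9, 54.2% of Tap1, 43.4% of Psmb10, 41.95% of Tap2 and 31.6% of Tapbp reads, against 21.1% of H2-K1, 18.8% of B2m and 13.3% of H2-D1 reads. Reads of Psmb8 were found in 52.3% of cluster 2 cells (exact 95% interval 42.5 to 61.9%), against 5.26% of cluster 4 cells and 0.840% (4 of 476) of the cells of clusters 0, 1, 3 and 5. In cluster 10, with a median depth of 401899 counts, they were found in 5 of 11 cells (45.5%). With every cell thinned to 50000 counts the share was 39.4% in cluster 2 and 18.2% in cluster 10. The median depth was 715266 counts in cluster 2 and 758395 in clusters 0, 1, 3 and 5.

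Psmb9 reads were found in 37.6% of cluster 2 cells, against 1.32% in cluster 4 and 2.10% in clusters 0, 1, 3 and 5, and Tap1 reads in 22.02%, against 5.26% and 3.36%. Psmb10 reads were found in 87.2% of cluster 2 cells, against 26.3% in cluster 4 and 47.5% in clusters 0, 1, 3 and 5. For B2m the shares were 100%, 100% and 99.8%. In the 11 cells of cluster 10, reads were found in 27.3% for Psmb9, 27.3% for Tap1 and 63.6% for Psmb10.

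Psmb8 and Psmb9 reads overlapped in the same cells. Of the 70 cells with Psmb8 reads, 31 (44.3%) also had Psmb9 reads, against 27 of 705 (3.83%) without. Within cluster 2 the shares were 29 of 57 (50.9%) and 12 of 52 (23.1%), and for Tap2 23 of 57 (40.4%) and 3 of 52 (5.77%). These shares pool the stages, which differed for each gene. Psmb8 reads were found in 23 of 28 and 18 of 23 E11.5 cells (GL53 and GL78) and 9 of 45 E10.5 cells (GL78). For Psmb9 the cells were 14, 11 and 7, and for Tap2 10, 9 and 4. The part of stage in the overlap was not tested. Cells without reads of a low gene may still express it, so these are shares of cells with reads.

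For each pair of catalytic subunits, the inducible gene's share of the reads was taken on the CPM per kilobase scale. These are shares of RNA, and the exchange of subunits in the proteasome itself was not measured. In cluster 2 Psmb10 made up 52.4% and 51.1% of the Psmb10 and Psmb7 pair (GL53 and GL78), against 11.1% and 25.2% in cluster 4. Psmb8 made up 37.2% and 5.49% of the Psmb8 and Psmb5 pair in cluster 2, against 0.0775% and 0.154% in cluster 4. Psmb9 made up 7.31% and 1.68% of the Psmb9 and Psmb6 pair in cluster 2, against 0.0951% and 0% in cluster 4. So the share was highest for Psmb10 and lowest for Psmb9 in both batches of cluster 2. The batches differed in stage, with all 28 cluster 2 cells of GL53 from E11.5 and 45 of 68 in GL78 from E10.5.

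The stages differed within cluster 2, in the cells of all gates. Psmb8 had 103.2 CPM in the 28 E11.5 cells of GL53 and 82.5 CPM in the 23 E11.5 cells of GL78, against 4.01 CPM in the 45 E10.5 cells of GL78, with reads in 23, 18 and 9 cells. Psmb9 had 47.8 and 47.9 CPM at E11.5, against 5.81 CPM at E10.5, and Tapbp 104.5 and 123.2 CPM, against 35.9 CPM. Psmb10 did not separate the stages, with 107.02 and 105.2 CPM at E11.5, against 132.97 CPM at E10.5.

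Reads of macrophage, class II and lymphoid marker genes moved with this difference. Reads of C1q, class II or lymphoid marker genes were found in 21 of 28 and 19 of 23 E11.5 cells of cluster 2, against 7 of 45 E10.5 cells, and Cd74, the class II invariant chain, had 91.4 and 60.1 CPM at E11.5, against 0.562 CPM at E10.5. In the cells without such reads Psmb8 had 32.7 CPM (7 cells of GL53) and 37.9 CPM (4 cells of GL78) at E11.5, against 4.63 CPM (38 cells) at E10.5. Between clusters, the 10 macrophage markers summed to 67.8 and 3.54 CPM in cluster 4, against 465.7 and 194.4 CPM in cluster 2, the 7 class II genes to 6.58 and 0.467 CPM, against 160.7 and 25.2 CPM, and the 4 T, B and NK cell markers to 0 and 1.27 CPM, against 20.8 and 43.2 CPM. Without cells that had C1q, class II or lymphoid reads the 4 genes Tap1, Psmb8, Psmb9 and Psmb10 were still called lower in cluster 4, at log2 ratios of −2.05, −3.68, −4.09 and −2.23, that of Tap2 was 2.00, the median over the 9 genes was −0.03, and only 7 cluster 2 cells of GL53 were left.

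Index sorting gave the CD45 signal of each cell, a surface protein of hematopoietic cells, in the sorter's fluorescence units. In cluster 2 the median was 16752 in 22 cells with Psmb8 reads and 7634 in 5 cells without (GL53), and 14343 in 27 cells with and 684 in 41 cells without (GL78). The GL78 medians mix the stages: 18 of the 27 cells with reads were E11.5, and 36 of the 41 without were E10.5. Within E10.5 the medians with and without reads were 6506 (9 cells) and 588 (36 cells), while within E11.5 they were 16765 (18 cells) and 19096 (5 cells). Outside cluster 2 the few cells with Psmb8 reads also had more CD45 signal, with medians of 2389 (6 cells) and 588 for those without in GL53, and of 6479 (6 cells) and 558 in GL78. Over all batches such cells lay in clusters 10 (5 cells), 4 (4), 0 (3) and 3 (1), and the part of cell type in this gap was not tested.

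**Figure D5:**
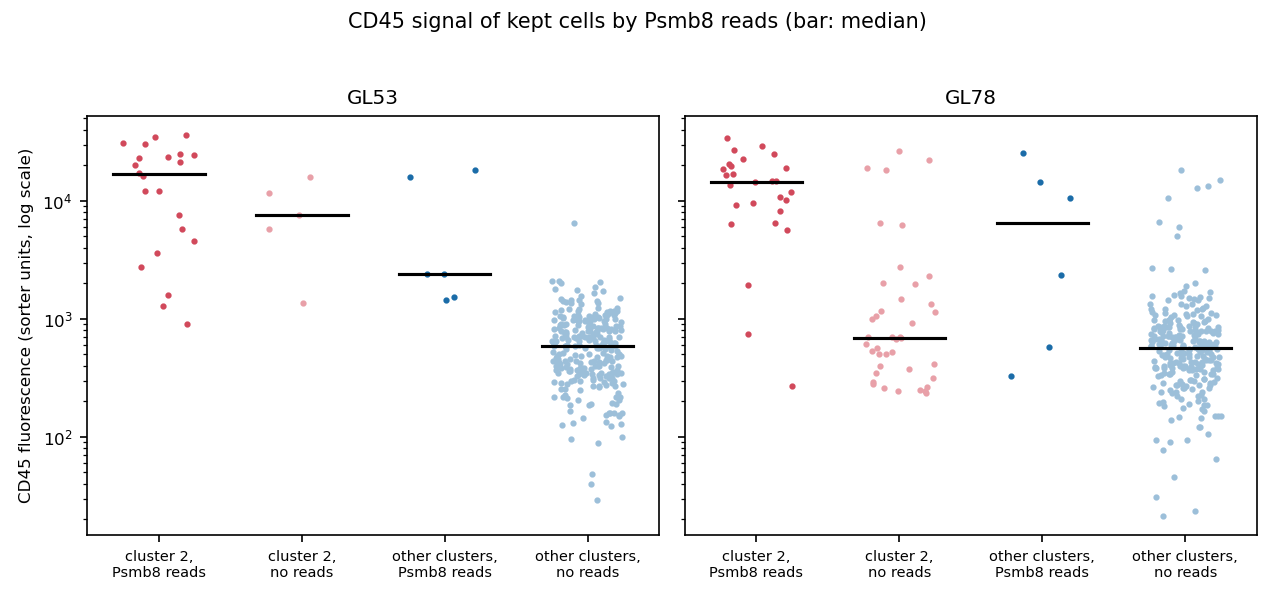
CD45 fluorescence (sorter units, logarithmic axis) of single cells in batches GL53 and GL78, split by cluster 2 or other clusters and by whether the cell had Psmb8 reads, with bars at the medians. Of the cells outside cluster 2 without Psmb8 reads, 3 in GL53 and 2 in GL78 had a signal at or below 0 and are not drawn. Cells of cluster 2 with Psmb8 reads have medians of 16752 and 14343, against 588 and 558 for cells of other clusters without. In GL78 the cells of both stages are pooled.

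Across the cells of a group and batch, Spearman's rho of Psmb8 with CD45 was 0.345 to 0.618 in 4 IAHC units, and that of Psmb8 with DLL4 was −0.493 to −0.283. DLL4 was not alone: Psmb8 was also negative with CD31 (−0.474 to −0.329), NOTCH1 (−0.467 to −0.254), JAG1 (−0.471 to −0.054) and NOTCH2 (−0.344 to −0.169). It was positive with cKIT (0.164 to 0.360) and CD41 (0.034 to 0.407), and had both signs with the GFI1 reporter. For H2-K1 and CD45 it was −0.013 to 0.696 in 9 units, and for H2-K1 and the GFI1 reporter −0.015 to 0.440. The heavy chains correlated with each other at 0.144 to 0.662 (median 0.355, 10 units), and Psmb8 with Psmb9 at 0.060 to 0.540 (5 units). Each unit mixes cells of several clusters, and cluster 2 held 95.8% of all Psmb8 reads. The part of this mix in the values was not tested. Cells of a unit share library preparation and differ in depth, and weak values in sparse counts are no finding.

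H2-D1 and H2-K1 did not stand in a fixed ratio. On the CPM per kilobase scale H2-D1 made up 63.7, 69.7 and 70.6% of their sum in E11.5 HE, against 51.3 and 55.7% in E10.5 HE, and the stages did not overlap. In GFI1+ IAHC it made up 60.4, 53.02 and 64.5% at E11.5, against 62.99 and 49.5% at E10.5, and the stages overlapped. Clusters 4 and 2 lay between 49.9 and 53.8%, the other endothelial clusters 0, 1, 3 and 5 between 54.9 and 76.4%, and cluster 7 did not exceed 43.6%.

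By cell cycle phase, as the authors assigned it with Cyclone, B2m was higher in G1 than in G2M cells in 9 of 9 groups and batches, by a log2 ratio of 0.03 to 0.91 (median 0.32). Tapbp was higher in G1 in 8 of 9, H2-K1 in 7, H2-D1 and Psmb10 in 6. The spread was widest for Tapbp, from −0.95 to 2.34. Against S cells B2m was higher in G1 in 2 of 3 groups and batches (−0.23 to 0.68). The share of all genes higher in G1 is not given here, and the part of cluster in these differences was not tested.

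Correlations among the 9 genes were taken across 20 cluster and batch units, on the log2(CPM + 1) scale. H2-K1 correlated with B2m at 0.857 and with H2-D1 at 0.853, and Psmb8 with Psmb9 at 0.766, with Psmb10 at 0.759 and with Tap1 at 0.700, while Psmb9 and H2-D1 were at −0.031. Tapbp did not exceed 0.495 with any of the others, and Tap2 lay between 0.319 and 0.626. The genes whose pattern was most like the mean of the 9, of 12350 compared, were Man2b1 (r = 0.906), Spn (0.873), Apobr (0.869), Rab17 (0.863), Il2rg (0.862), Ikzf1 (0.861), Cd27 (0.859), Osgin1 (0.850), Podnl1 (0.847) and Apbb1ip (0.846). Spn encodes the leukocyte surface protein CD43 and Ikzf1 the lymphoid factor Ikaros, and each of the 10 genes had its highest level in cluster 2 of GL53. Units of 1 batch share libraries, and these correlations are descriptions.

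Other genes of the pathway were read from lists. Among class I regulators Irf1, an interferon-induced activator of class I genes, was called higher at both gates: it had 66.9 CPM in E11.5 HE and 25.5 CPM in E10.5 HE (log2 ratio 1.33), and 127.8 CPM in E11.5 GFI1+ IAHC and 28.5 CPM in E10.5 GFI1+ IAHC (2.12). Of 12 regulators, 1 was called higher in HE and 3 in GFI1+ IAHC at E11.5, the others being Irf9 (40.1 and 10.3 CPM) and Stat2 (31.1 and 11.3 CPM), where 2.48% and 8.79% of all genes were called higher at these gates and 10 of the 12 reached 10 CPM. Nlrc5, the class I transactivator, did not exceed 0.485 CPM in any cluster unit. Irf8, a factor of myeloid and lymphoid cells, had 1.02 CPM in cluster 4 and 62.9 CPM in cluster 2 (−4.69), the 1 regulator called there, where 11.53% of all genes were called lower.

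Of 26 interferon-stimulated genes, 3 were called higher in E11.5 HE than in E10.5 HE (Gbp3, Gbp7 and Xaf1) and 0 lower. In GFI1+ IAHC 5 were called higher at E11.5 (Ifitm1, Rsad2, Xaf1, Ifi27 and Ddx58) and 1 lower (Ifitm3). Of these genes 11 and 10 reached 10 CPM, with median log2 ratios of 0.61 and 0.89, where 2.48% of all genes were called higher in HE and 8.79% in GFI1+ IAHC. Between cluster 4 and cluster 2, Ifitm1 was the 1 of 13 at 10 CPM that was called (20.7 and 1005 CPM, −5.55), where 11.53% of all genes were called lower. Interferon ligands reached 10 CPM in none of the comparisons, with 6 or 7 of the 7 genes at 0 in every group and batch. Of 8 interferon receptor and kinase genes 0 were called in any comparison, and 5 of the 7 at 10 CPM were higher in both batches in E11.5 HE than in E10.5 HE (median 0.49), where 30.3% of all genes were.

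None of the standard proteasome genes was called between the stages at either gate. Psmb5, Psmb6 and Psmb7 were each lower at E11.5 in HE in both batches (median −0.37, where 31.9% of all genes were lower in both) and in GFI1+ IAHC in its 1 batch (−0.41, where the median over all genes was 0.07). Of 15 other 20S and PA28 genes, 10 were lower at E11.5 in both batches in HE (median −0.17) and 15 in GFI1+ IAHC (−0.32). Between cluster 4 and cluster 2, Psme3 was the 1 of them called lower (64.4 and 138.6 CPM, −1.09), and Psme1, an activator subunit that interferon-gamma induces, had 136.7 CPM in cluster 4 and 337.6 CPM in cluster 2 (−1.29). Over all genes, 11.53% were called lower between these clusters.

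Among the 7 class I partners 0 were called between the stages of HE, and Tapbpl, a relative of tapasin, was called higher in E11.5 than in E10.5 GFI1+ IAHC (13.2 and 5.23 CPM). Between cluster 4 and cluster 2 Pdia3, a chaperone of the loading complex, was called higher (1494 and 648 CPM, 1.20) and Tapbpl lower (a log2 ratio of −1.80). Of 14 other class I genes Cd1d1, which presents lipids, was called higher in E11.5 than in E10.5 GFI1+ IAHC (55.3 and 17.4 CPM, 1.61) and had 41.1 CPM in E11.5 HE and 15.9 CPM in E10.5 HE (1.37). H2-T23 was called lower in cluster 4 than in cluster 2 (7.20 and 28.1 CPM, −1.82) and Mr1 higher (33.5 and 4.83 CPM, 2.34). All 3 class II genes that reached 10 CPM were called lower in cluster 4: Cd74, H2-Ab1 and H2-DMa. Over all genes, 11.53% were called lower and 12.7% higher between these clusters. Between the stages, 8.79% of all genes were called higher in GFI1+ IAHC and 2.48% in HE.

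In the other comparisons the lists gave few calls. Between E11.5 HE and E11.5 GFI1+ IAHC the lists of class I partners, other class I genes, constitutive and other proteasome genes, regulators, receptors and class II genes gave 0 calls, and the interferon-stimulated genes 1, which was lower in HE. Over all genes, 0.917% were called lower there. Between E10.5 HE and E10.5 GFI1+ IAHC 1 other class I gene was called higher, 1 regulator lower, and among the interferon-stimulated genes 1 higher and 1 lower. Over all genes, 5.47% were called higher and 1.99% lower there. Between E11.5 GFI1+ IAHC and GFI1- IAHC 2 interferon-stimulated genes were called higher, where 0.493% of all genes were, and 10 of the 11 at 10 CPM were higher in both batches (median 0.59), where 26.2% of all genes were. There 8 of 10 macrophage markers were called lower (median −2.06), against 1.76% of all genes. Among the lineage markers, 4 of 4 endothelial genes and 1 of 1 mesenchymal gene at 10 CPM were called higher in cluster 4 than in cluster 2, and 5 of 5 hematopoietic, 5 of 5 macrophage, 2 of 2 megakaryocyte and 1 of 1 lymphoid gene were called lower, where 12.7% of all genes were called higher and 11.53% lower. The germ cell genes had 4 calls, all lower, in E11.5 HE against E11.5 GFI1+ IAHC, where cells of cluster 8 were sorted and 0.917% of all genes were called lower.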

How the data were processed

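Single cells of E10.5 and E11.5 mouse AGM were compared. The authors aligned reads with STAR 2.7.3 to mm10, counted them per gene with HTSeq 0.9.1 and deposited raw counts; annotation release, strand setting and duplicate handling are not given in the sources used here. They filtered cells by genes, counts and mitochondrial share, clustered them in Scanpy 1.4.4 (Louvain, with depth, mitochondrial share and cell cycle regressed out, no batch correction), and deposited the sorter's fluorescence intensity per cell. A normalized table and 10 of 22 annotation columns were not used. Groups came from the labels.

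Ensembl IDs were matched to mouse symbols (45229 of 46078; unmatched rows held 0.0581% of counts, and 92 spike-in rows held 0). Counts were summed per group or cluster and batch (at least 10 cells) and scaled to CPM with Python 3.11.15, NumPy 2.4.6, pandas 2.3.3 and SciPy 1.17.1; matplotlib 3.10.9 drew the plots. The ratio code was tested on simulated data. With 1 sample a group there was no test and no p-value. Poisson, conditional and exact binomial intervals are at 95% and cover counting error only, and the floor for a count of 0 was 3 counts. Median depth per cell was 742686 counts in E11.5 HE, 686708 in E11.5 GFI1+ IAHC, 573567 in E11.5 GFI1- IAHC, 879928 in E10.5 HE and 850632 in E10.5 GFI1+ IAHC.

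The 9 genes and the lists (class I partners, other class I, proteasome, regulators, interferon receptors, ligands and stimulated genes, class II, lineage markers) were chosen with earlier results of these data known. All 9 are described; listed genes are named for their highest or lowest values, and the 10 genes most alike by Pearson r over units. Alternatives were a pseudocount of 0.1, 1 CPM instead of 10, cells weighted equally, median-of-ratios scaling, thinning to 50000 counts, clusters 6 to 10 left out, all cells, pooled batches and each batch left out. Leaving out cells with C1q, class II or lymphoid reads was added after seeing the data.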

Additional observations from a re-analysis of the deposited data

Results flagged for a closer look

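Tapbp went opposite ways in the same contrast in different groups, in every batch that could be used, and this difference was not tested. Between HE and GFI1+ IAHC its log2 ratio was −0.16 among E11.5 cells (3 batches) and 0.41 among E10.5 cells (1 batch), and −0.35 for E11.5 over E10.5 in HE (2 batches) and 0.29 in GFI1+ IAHC (1 batch). At 24.1 to 32.3 CPM in these groups of GL78, each ratio was under a 2-fold difference. These directions depended on which cells entered: without cells that had C1q, class II or lymphoid reads the ratio was 0.09 between HE and GFI1+ IAHC at E11.5, and between the stages it was −0.25 in HE and −0.35 in GFI1+ IAHC, which is then the same direction. Without clusters 6 to 10 the ratio of the gates at E10.5 was 0.02.

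Reads were also present in cells that entered no comparison, above what a count of 0 allows. The 3 E10.5 GFI1- IAHC cells had 77.4 CPM of H2-K1, 288.8 CPM of H2-D1, 210.2 CPM of B2m, 10.7 CPM of Tapbp and 12.5 CPM of Psmb10, with all reads of H2-K1, of Tapbp and of Psmb10 in 1 cell for each gene. The 85 cells that the authors left out had 264.6 CPM of H2-K1, 291.2 CPM of H2-D1, 575.9 CPM of B2m, 5.00 CPM of Tap1, 8.58 CPM of Tap2, 40.2 CPM of Tapbp, 11.8 CPM of Psmb8, 10.1 CPM of Psmb9 and 32.1 CPM of Psmb10.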

How the results depend on the processing

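H2-D1 stayed at least 2-fold higher at E11.5 under every alternative run, with log2 ratios of 1.07 to 1.61 in HE and 1.52 to 1.71 in GFI1+ IAHC. Of 477 ratios of single members under the alternatives, 434 kept their sign, as did 43 of 53 medians. The number of members called between E11.5 HE and E11.5 GFI1+ IAHC was 0, but 1 with batches pooled or without GL58. Between E10.5 HE and E10.5 GFI1+ IAHC the median was 0.19, but −0.32 with cells thinned, and 2 members were called in place of 1 without cells that had C1q, class II or lymphoid reads (an alternative chosen after seeing the data). For GFI1+ over GFI1- IAHC 2 were called without GL53, in place of 0. Between E11.5 HE and E10.5 HE the median was 0.69, but 0.15 without GL58, and 3 members were called without GL78, in place of 1. Between E11.5 and E10.5 GFI1+ IAHC 1 member was called, but 2 with cells weighted equally or clusters 6 to 10 left out and 3 with cells thinned, and without C1q, class II or lymphoid reads the median was 0.0134 in place of 0.68 and 2 were called. For cluster 4 over cluster 2 the median was −0.71, but −1.04 with cells weighted equally, −1.25 with cells thinned and −0.0277 without those reads. The shares of all genes called under these alternatives are not given here, so these counts of members called stand without a background. The causes were not tested. Psmb8, Psmb9, Tap1 and Tap2 rest on few cells with reads, which limits their ratios between groups. No paired analysis was possible because replicate numbers name cells and pair nothing across groups, and groups were set against each other within batches instead.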
